A study of Mus musculus with 19 samples.

Results

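The genes described here are 8 transcription factors that control the making of granulocytes, monocytes and dendritic cells: Cebpa, Cebpb, Cebpd, Cebpe, Sfpi1 (the older symbol of the gene for PU.1, Spi1), Irf8, Gfi1 and Klf4. They were taken by symbol from the table of estimated counts, 8 of its 23458 genes, and all 8 passed the filter on low counts that left 15508 genes for testing. They were listed by name, with earlier results of these data known.

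The series holds polyA RNA-seq of C57BL/6 mice, 17 libraries in 7 groups, from mice with an internal tandem duplication (ITD) of the FLT3 receptor delivered by retrovirus or knocked in. WT-GFP (2 libraries, Mx1-cre+;Dnmt3a+/+ with the empty vector MSCV_GFP) and KO-GFP (2 libraries, Mx1-cre+;Dnmt3af/f with MSCV_GFP) are CD4+CD8+ thymocytes. WT-ITD (3 libraries, Mx1-cre+;Dnmt3a+/+) and KO-ITD (4 libraries, Mx1-cre+;Dnmt3af/f) are leukemias that carry MSCV_FLT3-ITD-GFP. All 11 were sorted as CD4+CD8+ donor-derived cells from lethally irradiated transplant recipients, from the thymus except WT-ITD replicate 2 and KO-ITD replicates 1 and 2, which came from bone marrow. Every retroviral group carries Mx1-cre, a recombinase whose promoter answers to interferon. The knock-in libraries are bulk, unsorted bone marrow: 3 pre-leukemic (ER-cre-;Dnmt3af/f;Flt3+/ITD, in which the floxed alleles were not cut by this recombinase), 2 leukemias here called KI Dnmt3a f/+ (ER-cre+;Dnmt3af/+;Flt3+/ITD) and 1 called KI Dnmt3a f/f (ER-cre+;Dnmt3af/f;Flt3+/ITD). The labels give no age, inducing agent or animal behind a replicate. With 1 library the f/f leukemia has no spread of its own, and its tests borrow the spread of the other groups.

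As background, PU.1 and C/EBP alpha together open the granulocyte-monocyte programme in progenitors of the bone marrow. C/EBP epsilon then drives late granule genes of neutrophils, C/EBP beta takes over from C/EBP alpha when granulocytes are made under stress, and IRF8 and KLF4 direct monocyte and dendritic cell fates. GFI1 is a repressor that favours neutrophils over monocytes and is also needed by developing T cells. The loss of the DNA methyltransferase Dnmt3a together with FLT3-ITD is a known pair of lesions in leukemia, and the question that the design poses for these genes is whether their levels differ with the ITD, with Dnmt3a and between the models.

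Totals ran from 4933890 to 25331908 estimated counts per library. Dnmt3a, the deleted gene, lay at 36.45 to 54.95 CPM (the count over the library size after TMM scaling) in the 3 knock-in leukemias and 129.6 to 153.5 in the pre-leukemic libraries, and at 53.03 to 126.7 in KO-ITD against 180.2 to 237.7 in WT-ITD. In the thymocytes it was at 207.1 and 144.2 CPM in KO-GFP against 257.1 and 250.1 in WT-GFP, so KO-GFP replicate 1 lay inside the WT-ITD range. The double-positive thymocyte markers, which define the sort, summed to 2483 to 14023 CPM in the 11 retroviral libraries and to 8.23 to 283.9 in the knock-in libraries. KO-ITD replicate 4 stood apart: its 14 monocyte and macrophage markers summed to 5254 CPM against 178.2 to 342.1 in the other 3 KO-ITD libraries, and its stroma and endothelium markers to 2228 against 187.7 to 650.2. The leukemias KI Dnmt3a f/+ replicates 1 and 2 were also unlike each other, with granulocyte marker sums of 3888 and 20843 CPM. Xist was expressed in all 4 GFP libraries, WT-ITD replicate 3 and KO-ITD replicate 2 and Ddx3y in the other 11, so the sex of the cells moved with the groups and was not adjusted for. In bulk RNA, fewer cells of a type and less RNA per cell cannot be told apart.

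The genes lie on 7 chromosomes of mm9, the build the authors used. Cebpa (chr7:35904312-35906951, plus strand), Cebpb (chr2:167514415-167515918, plus) and Cebpd (chr16:15887379-15889638, plus) are genes of 1 exon. Cebpe (chr14:55329200-55331011, minus) has 2 exons, Sfpi1 (chr2:90936954-90955913, plus) 5, Irf8 (chr8:123260276-123280592, plus) 9 and Klf4 (chr4:55540009-55545347, minus) 5. Gfi1 (chr5:108145674-108154825, minus) is the only member with 2 annotated transcripts. The exon of Cebpd overlaps the antisense gene 2310008H04Rik and no source used here says whether counting used the strand, so its values are uncertain.

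Promoter sequences from RefSeq (GRCm38.p6, not the build of the counts) were found for 5 of the 8 genes, and none for Cebpd, Cebpe and Sfpi1. The 250 bases before the start are shown for Cebpb and Klf4, the 2 members called in KO-ITD against KO-GFP. A CpG, a C followed by a G, is the site that Dnmt3a methylates. Every CpG is in capitals. No methylation was measured in the files used here, and the part of CpG content in the levels was not tested.
Cebpb, chr2:167688665-167688914, plus strand: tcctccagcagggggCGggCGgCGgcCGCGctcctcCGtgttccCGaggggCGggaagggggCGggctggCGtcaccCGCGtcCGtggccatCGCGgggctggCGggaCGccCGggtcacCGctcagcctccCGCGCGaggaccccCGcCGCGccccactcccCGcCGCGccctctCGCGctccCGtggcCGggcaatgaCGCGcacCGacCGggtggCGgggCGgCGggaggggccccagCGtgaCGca
Klf4, chr4:55532476-55532725, minus strand: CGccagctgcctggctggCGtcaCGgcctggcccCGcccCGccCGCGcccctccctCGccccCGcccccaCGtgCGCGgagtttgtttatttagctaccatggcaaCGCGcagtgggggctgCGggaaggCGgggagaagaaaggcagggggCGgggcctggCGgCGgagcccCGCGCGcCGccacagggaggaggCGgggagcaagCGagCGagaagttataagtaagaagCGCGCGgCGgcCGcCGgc
The Cebpb window held 41 CpGs, more than 98.9% of the 32851 promoters in that table, and the Klf4 window 32, more than 95.4%, against a median of 6 over all promoters. Members not called in that comparison had many too: Cebpa had 22, more than 85.2% of promoters, and the first Irf8 promoter 29, more than 93.2%. The second Irf8 promoter had 8, more than 57.0%. The 2 Gfi1 promoters, whose transcripts are compared further on, had 13 and 9.
Gfi1 outer start, chr5:107725806-107726055, minus strand: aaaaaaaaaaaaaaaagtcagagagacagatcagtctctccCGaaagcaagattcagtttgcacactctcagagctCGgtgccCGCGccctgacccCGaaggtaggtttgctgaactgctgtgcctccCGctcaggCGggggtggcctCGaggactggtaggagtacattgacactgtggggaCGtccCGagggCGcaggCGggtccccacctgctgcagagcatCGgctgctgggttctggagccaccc
Gfi1 inner start, chr5:107724344-107724593, minus strand: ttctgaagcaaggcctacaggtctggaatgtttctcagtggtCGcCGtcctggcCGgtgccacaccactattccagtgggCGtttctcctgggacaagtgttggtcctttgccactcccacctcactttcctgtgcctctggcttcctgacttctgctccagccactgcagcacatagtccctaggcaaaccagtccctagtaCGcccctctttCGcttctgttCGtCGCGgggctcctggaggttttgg
The starts of the 2 Gfi1 promoters are 1462 bases apart, the same distance as between the 2 transcripts in mm9. On either strand, the letters TTGCNNAA, a core of C/EBP sites, occurred once in the outer Gfi1 window and in no other member window, against 9.56% of all promoters of the same length. The letters GAGGAAGT, a PU.1 site, were in no member window (2.44% of all promoters). TTCNNNGAA, the letters of a STAT site, occurred 2 times in the first Irf8 promoter and in no other member window (7.02% of all promoters).

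In the normal double-positive thymocytes the members were low except Gfi1. Per kilobase of exon, Gfi1 stood at 64.03 ± 9.63 CPM per kb (SD, n = 2) in WT-GFP and Irf8 at 7.09 ± 1.19, while the other 6 genes lay between 0.06 (Cebpd) and 2.55 (Sfpi1). The same order of Gfi1, Irf8, Sfpi1 and Cebpb from the top was seen in KO-GFP. Raw depth limits the lowest of them: Cebpd rested on 2 to 9 estimated counts in the 4 GFP libraries and Cebpe on 1 to 20. In the pre-leukemic marrow Sfpi1 led with 80.18 ± 10.68 CPM per kb (n = 3), followed by Irf8 at 60.18 ± 43.12 and Cebpa at 32.78 ± 8.94, and Klf4 was lowest at 1.60 ± 0.80. The Irf8 spread is so wide that it cannot be ordered against its neighbours.

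**Figure D1:**
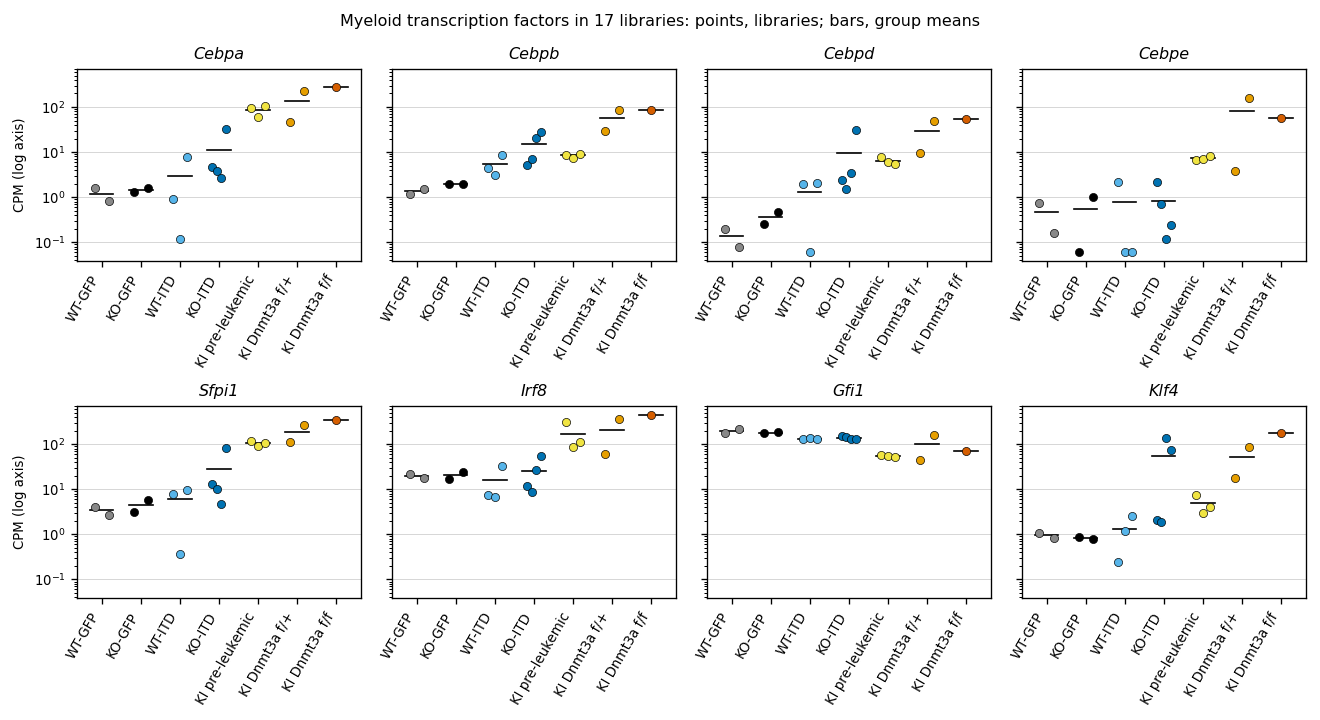
CPM of the 8 genes on a log axis, with libraries as points and group means as bars. Gfi1 stays between 44.88 and 220.1 CPM in all 17 libraries, while Cebpa runs from 0.12 in WT-ITD replicate 2 to 278.1 in the f/f leukemia.

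Cebpb, the C/EBP family member of inflammation and stress granulopoiesis, was higher in FLT3-ITD leukemia than in thymocytes in the Dnmt3a-deleted cells. It stood at 1.92 CPM in each KO-GFP library and at 5.09, 7.03, 21.05 and 27.67 in KO-ITD replicates 1 to 4. Every KO-ITD library was above both KO-GFP libraries. The change was 2.98 ± 0.75 on the log2 scale (SE, edgeR adjusted p = 0.0177). With Dnmt3a intact, WT-GFP held 1.20 and 1.5 CPM of Cebpb and WT-ITD 4.38, 3.13 and 8.65. These groups did not overlap either, but the log2 difference of 1.99 ± 0.73 did not pass (edgeR adjusted p = 0.181). KO-ITD against WT-ITD gave 1.49 ± 0.59 (edgeR adjusted p = 0.195), with KO-ITD replicates 1 and 2 inside the WT-ITD range.

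Klf4, a zinc finger factor of monocyte differentiation, was the other member that rose in KO-ITD against KO-GFP, and it did so in a split group. KO-GFP had 0.89 and 0.81 CPM. KO-ITD replicates 1 and 2, from bone marrow, had 2.04 and 1.92, and replicates 3 and 4, from thymus, had 139.1 and 73.65. The log2 change was 5.98 ± 1.84 (edgeR adjusted p = 0.0389). WT-ITD libraries held 0.25, 1.16 and 2.58 CPM. Replicates 3 and 4 were also the libraries added in a later submission with another Cuffdiff version, so that tissue and submission cannot be told apart for them. Within the first submission the change was 1.21 on the log2 scale (edgeR adjusted p = 0.371) for Klf4 and 1.66 (edgeR adjusted p = 0.0554) for Cebpb. Markers of other cell types were also divided between these libraries. In KO-ITD replicates 1 to 4 the 10 stroma and endothelium markers summed to 314.7, 187.7, 650.2 and 2228 CPM and the 10 dendritic cell markers to 86.79, 44.84, 802.1 and 440.6. The 14 monocyte and macrophage markers summed to 342.1, 178.2, 268.2 and 5254. The single macrophage genes Emr1 (9.80, 3.85, 28.98 and 156.2 CPM) and Marco (at 0, then 0.11, 2.04 and 364) were higher in replicates 3 and 4. In replicate 3, Ccr2, Cd14 and Vcan were also above replicates 1 and 2. The other markers of that list, such as Cd68 (13.49, 7.91, 7.10 and 187.7 CPM), were not. The part of such cells in the Klf4 and Cebpb levels was not tested. A fit that was not planned in advance left out WT-ITD replicate 3 and KO-ITD replicate 4, the libraries of their groups with the most macrophage marker RNA. Cebpb and Klf4 were called in it, with KO-ITD replicate 3 kept. Neither was called without either 1 of the 2 KO-GFP libraries, with edgeR adjusted p of 0.193 and 0.109 for Cebpb and 0.264 and 0.185 for Klf4, and without KO-ITD replicate 3 Klf4 was at 4.91 (edgeR adjusted p = 0.061).

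These 2 called members of 8 stood against 19.6% of all tested genes called in KO-ITD against KO-GFP, so the count itself is close to the background. The median log2 change was 2.76 over the 8 members, against 0.19 over all genes, and 1.20 over the members without KO-ITD replicate 4. Cebpd, a relative of Cebpb, rose past the threshold in neither retroviral comparison: it was at 0.26 and 0.46 CPM in KO-GFP and 2.42, 1.54, 3.49 and 30.46 in KO-ITD (log2 difference 4.69 ± 1.56, edgeR adjusted p = 0.0506). Cebpa, the founder of granulocyte-monocyte progenitors, was at 1.28 and 1.62 CPM against 4.71, 3.79, 2.65 and 32.40, and its log2 difference of 2.89 ± 1.38 did not pass (edgeR adjusted p = 0.142). Sfpi1 had 3.13 and 5.72 CPM against 12.85, 10, 4.81 and 82.76 (log2 difference 2.63 ± 1.19, edgeR adjusted p = 0.125). For all of Cebpa, Cebpd and Sfpi1 the highest KO-ITD library was replicate 4, which also had the macrophage sum of 5254 CPM. Without it the log2 differences were 1.35 for Cebpa, 2.75 for Cebpd and 1.06 for Sfpi1, none of which passed. The part of other cells in those values was not tested. Donor cells of the KO-ITD libraries were enriched for Sca-1 and those of KO-GFP for ckit, which cannot be told apart from the ITD here. Donor cells of WT-ITD were enriched for Sca-1 in replicate 1 and for ckit in replicate 2, and were whole bone marrow in replicate 3. Enrichment thus differed between KO-ITD and WT-ITD too.

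**Figure D2:**
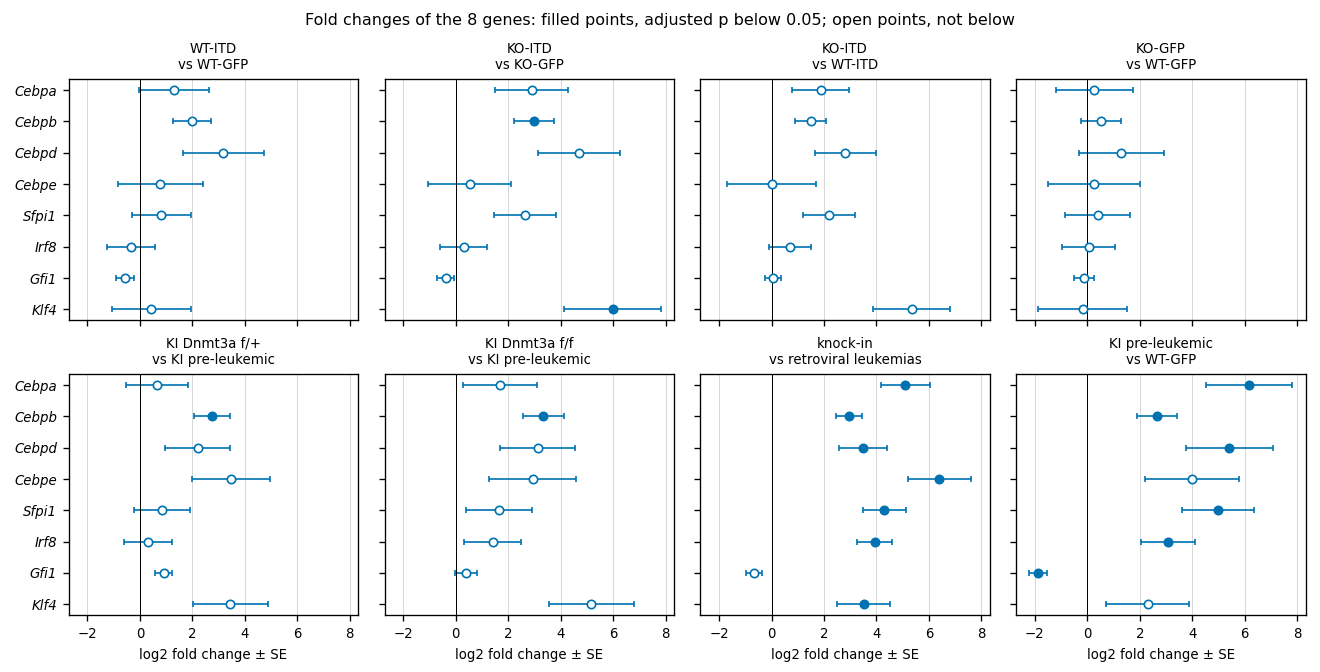
Log2 fold change ± SE of each gene in 8 comparisons, with filled points for an adjusted p below 0.05. Cebpb is filled in KO-ITD against KO-GFP and in both knock-in leukemia comparisons, and Klf4 in KO-ITD against KO-GFP.

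With Dnmt3a intact, no member was called in WT-ITD against WT-GFP, where 2.24% of all genes were. 1 of the 8 members had an unadjusted p below 0.05 there, and DESeq2, which gave no adjusted p for Cebpd and Sfpi1, called none. Gfi1 stood at 132.5, 138.4 and 129.4 CPM in WT-ITD, below both WT-GFP libraries at 177.8 and 220.1, with a log2 difference of -0.58 ± 0.34 (edgeR adjusted p = 0.409). In KO-ITD it lay at 150.4, 143.2, 130.0 and 133.0 CPM, below 173.9 and 188.6 in KO-GFP (log2 difference -0.38 ± 0.32, edgeR adjusted p = 0.399). Gfi1 was therefore lower in each of the 7 ITD libraries than in any of the 4 GFP libraries, a pattern that neither test called. WT-ITD replicate 2, from marrow, whose monocyte and macrophage markers summed to 19.49 CPM with 3 of the 14 at 0, had the lowest Cebpa (0.12 CPM, 2 estimated counts), Sfpi1 (0.37 CPM) and Cebpd (0.06 CPM, 1 estimated count) of all retroviral libraries.

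Between KO-GFP and WT-GFP thymocytes, where Dnmt3a RNA was at 207.1 and 144.2 against 257.1 and 250.1 CPM, no member was called. The comparison called 0.0% of all genes, 0 of 15508 by edgeR with 74 at an unadjusted p below 0.05, and 12 by DESeq2. Gfi1, the one abundant member in thymocytes, had a log2 difference of -0.13 ± 0.38 (edgeR adjusted p = 1). KO-ITD against WT-ITD called 0.49% of all genes and no member. Donor enrichment differed between these groups and was not adjusted for. Klf4 had the largest difference of the 8 members, 5.35 ± 1.47 on the log2 scale (edgeR adjusted p = 0.114), and 4 of the 8 had an unadjusted p below 0.05, while DESeq2 called Klf4 alone. Without KO-ITD replicate 2 the Klf4 difference was 5.76 and passed (edgeR adjusted p = 0.0352). Whether the ITD effect itself differed with Dnmt3a was asked by the interaction of the 4 groups. It called 0.0% of genes, 0 by edgeR with 838 at an unadjusted p below 0.05, and 81 by DESeq2. The interaction estimate was 5.54 ± 2.19 for Klf4 (edgeR adjusted p = 0.819) and 0.99 ± 0.96 for Cebpb (edgeR adjusted p = 0.858). The calls of Cebpb and Klf4 in the deleted cells alone are thus not shown to depend on Dnmt3a.

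In the knock-in model, which is myeloid, Cebpb again was the member that changed. Its levels were 8.71, 7.54 and 9.28 CPM before leukemia, 28.73 and 86.35 in the f/+ leukemias and 86.58 in the f/f leukemia. All 3 leukemias were above all 3 pre-leukemic libraries. Cebpb rose by 2.75 ± 0.68 on the log2 scale in f/+ (edgeR adjusted p = 0.0377) and by 3.34 ± 0.77 in f/f (edgeR adjusted p = 0.0391). It was the only called member of 8 in each, beside 5.0% of all genes called in f/+ and 3.01% in f/f. The f/+ call was lost without replicate 2 (1.75, edgeR adjusted p = 0.236), and both calls were lost without any 1 pre-leukemic library, with changes of 2.67 to 2.82 in f/+ and 3.26 to 3.41 in f/f. The 2 comparisons share the pre-leukemic libraries and are not independent. The sum of the 14 monocyte and macrophage markers was higher in the leukemias too. It was 205.9 to 421.8 CPM in pre-leukemic marrow, 622.5 and 1999 in f/+ and 3164 in f/f. Lyz2 alone was at 425.7, 1194 and 1135 CPM in these leukemias, and at 81.92 to 125.4 before leukemia. Not all the markers rose. Csf1r in f/+ replicate 1 (32.06 CPM) and Cx3cr1 in both f/+ libraries (1.28 and 3.72) lay below every pre-leukemic library. Kit, a progenitor receptor, ran opposite to Cebpb, from 532.9 to 717.9 CPM to 31.03 to 158.3 in the 3 leukemias. Cd34, also of progenitors, fell in f/+ replicate 2 (110.3 CPM) and f/f (95.15). In f/+ replicate 1 it was at 747.1, inside the pre-leukemic 637.6 to 796.8. The part of cell composition in the Cebpb level of this unsorted marrow was not tested. The control arm carries the intact floxed alleles without the recombinase, so the loss of Dnmt3a and the change to leukemia cannot be told apart.

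Klf4 went the same way without passing: 7.64, 3.02 and 3.96 CPM in pre-leukemic marrow, 17.83 and 88.43 in f/+ and 174.1 in f/f. The groups did not overlap, with log2 differences of 3.45 ± 1.43 (edgeR adjusted p = 0.157) and 5.17 ± 1.63 (edgeR adjusted p = 0.0999). Cebpe, the factor of late neutrophil granules, divided the f/+ leukemias. It was at 3.78 CPM in replicate 1, below the pre-leukemic 6.58, 7.16 and 8.38, and at 159.5 in replicate 2, with 56.50 in f/f (log2 difference in f/+ 3.46 ± 1.49, edgeR adjusted p = 0.172). The late granule genes were also lower in replicate 1 than in replicate 2, with Ltf at 329.7 and 2420 CPM and Cd177 at 63.48 and 824.3. Unlike Cebpe, both were above every pre-leukemic library in replicate 1. The pre-leukemic values were 29.51, 55.99 and 15.66 CPM for Ltf and 4.80, 8.67 and 3.19 for Cd177. Cd34, a progenitor marker, was at 747.1 in replicate 1 and 110.3 in replicate 2. Gfi1 was at 44.88 in replicate 1 and 158.8 in replicate 2 around the pre-leukemic 52.64 to 57.41 (log2 difference 0.90 ± 0.34, edgeR adjusted p = 0.128). Without replicate 1 the Gfi1 difference was 1.54 and passed (edgeR adjusted p = 0.000485), and without replicate 2 it was -0.28.

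Cebpa was called in neither knock-in comparison. It was above all pre-leukemic libraries in f/+ replicate 2 and f/f, and below them in f/+ replicate 1. Its levels were 93.14, 60.33 and 106.1 CPM in pre-leukemic marrow, 46.74 and 224.2 in f/+ and 278.1 in f/f, and the log2 differences of 0.65 ± 1.18 (edgeR adjusted p = 0.786) and 1.68 ± 1.40 (edgeR adjusted p = 0.521) did not pass. Per kilobase, Cebpa exceeded Cebpb 6.09, 4.56 and 6.52 times in the pre-leukemic libraries. In the leukemias the ratio was 0.927 and 1.48 in f/+ and 1.83 in f/f, so no leukemia reached the lowest pre-leukemic library. The log2 ratio was 0.44 ± 0.50 in the 3 leukemias and 2.50 ± 0.27 in the 3 pre-leukemic libraries, a difference of -2.06 with a two-sided exact permutation p of 0.1, the smallest that 3 against 3 allows. The ratio was chosen after its values were seen. In the retroviral libraries Cebpb exceeded Cebpa in all 11, with ratios from 0.0223 to 0.76.

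**Figure D3:**
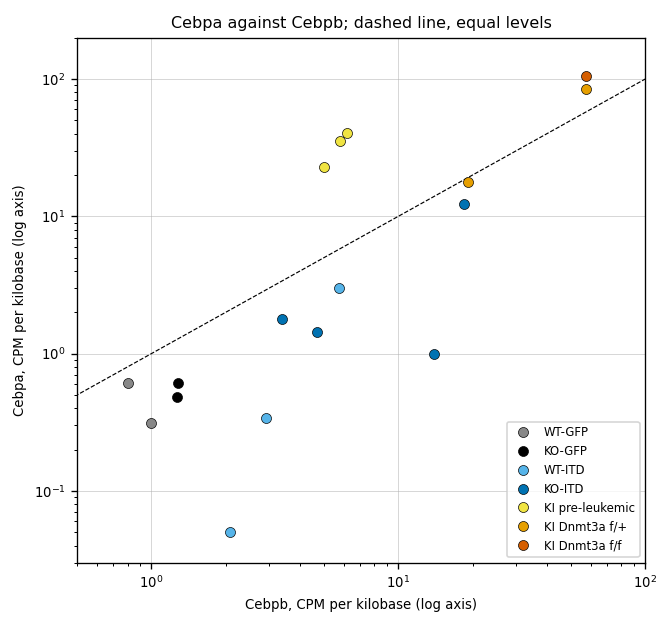
Cebpa against Cebpb in CPM per kilobase on log axes, 1 point per library, with a dashed line of equal levels. The 3 pre-leukemic libraries lie well above the line with ratios of 4.56 to 6.52, the 3 knock-in leukemias near it and the 11 retroviral libraries below it.

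Between the leukemias of the models, 7 of the 8 members were higher in the 3 knock-in than in the 7 retroviral libraries, against 32.1% of all genes called in either direction. Cebpe had the largest log2 difference, 6.40 ± 1.19 (edgeR adjusted p = 0.00145), and Cebpa followed with 5.10 ± 0.93 (edgeR adjusted p = 0.00126). Sfpi1 differed by 4.30 ± 0.81 (edgeR adjusted p = 0.0016), Irf8 by 3.93 ± 0.68 (edgeR adjusted p = 0.000956), Klf4 by 3.51 ± 1.02 (edgeR adjusted p = 0.019), Cebpd by 3.49 ± 0.91 (edgeR adjusted p = 0.0107) and Cebpb by 2.96 ± 0.49 (edgeR adjusted p = 0.000688). The libraries overlapped for Klf4 and Cebpd, whose highest retroviral libraries, at 139.1 and 30.46 CPM, exceeded the lowest knock-in one. Neither passed without f/+ replicate 2, at 2.72 for Klf4 (edgeR adjusted p = 0.0834) and 2.69 for Cebpd (edgeR adjusted p = 0.0563), or with the compared groups fitted alone (edgeR adjusted p = 0.08 and 0.0569). The count was 5 in that fit and 5 by DESeq2, which gave no adjusted p for Cebpd and Sfpi1. Cebpb in KO-ITD reached 27.67 CPM, just under the 28.73 of f/+ replicate 1. Gfi1 was the exception, at 44.88 to 158.8 CPM against 129.4 to 150.4, with a log2 difference of -0.67 ± 0.29 that did not pass (edgeR adjusted p = 0.0889). It passed without either f/+ library, at -0.35 (edgeR adjusted p = 0.0478) without replicate 1 and at -1.26 (edgeR adjusted p = 5.1e-05) without replicate 2. Tissue, sort, model and submission differ together between these groups and cannot be told apart.

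The same held for the non-leukemic groups. In pre-leukemic marrow against WT-GFP thymocytes 5 members were higher and Gfi1 was lower, against 31.9% of all genes called. Cebpa differed by 6.16 ± 1.63 (edgeR adjusted p = 0.0132), Cebpd by 5.42 ± 1.67 (edgeR adjusted p = 0.0261), Sfpi1 by 4.97 ± 1.37 (edgeR adjusted p = 0.0161), Irf8 by 3.08 ± 1.04 (edgeR adjusted p = 0.039) and Cebpb by 2.65 ± 0.76 (edgeR adjusted p = 0.019). Gfi1 fell by 1.87 ± 0.34 on the log2 scale (edgeR adjusted p = 0.00179), from 177.8 and 220.1 CPM to 57.41, 53.73 and 52.64. Cebpe (3.98 ± 1.79, edgeR adjusted p = 0.105) and Klf4 (2.31 ± 1.58, edgeR adjusted p = 0.278) did not pass. Leaving out either WT-GFP library left Gfi1 as the only called member, and without pre-leukemic replicate 1 Cebpd and Irf8 no longer passed.

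Ordered by group mean, Cebpa, Cebpb, Cebpd, Sfpi1, Irf8 and Klf4 were highest in the f/f leukemia, which is 1 library, and Cebpe in f/+, where its libraries differ from 3.78 to 159.5 CPM. WT-GFP and KO-GFP were the lowest groups for Cebpa, Cebpb, Cebpd, Cebpe, Sfpi1 and Klf4, and no member passed the test between them. Gfi1 had another order: WT-GFP at 199 ± 29.93 CPM, KO-GFP at 181.3 ± 10.36, KO-ITD at 139.1 ± 9.39, WT-ITD at 133.4 ± 4.56, f/+ at 101.9 ± 80.57, f/f at 71.67 and pre-leukemic marrow at 54.59 ± 2.50. KO-ITD and WT-ITD in that order differ by less than their spread.

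The 2 transcripts of Gfi1 begin 1462 bases apart and share their later exons, so that their split rests on the first exons. The inner start took 24.2% and 21.4% of the estimated Gfi1 counts in WT-GFP, 44.9% and 21.9% in KO-GFP, and 35.9%, 24.6% and 13.4% in WT-ITD. It took 14.2%, 15.9%, 13.4% and 5.3% in KO-ITD and 14.4%, 8.6% and 4.1% in pre-leukemic marrow. All 4 KO-ITD libraries were below both KO-GFP libraries, with means of 12.2% ± 4.72 and 33.4% ± 16.2 and a two-sided exact permutation p of 0.133 (0.305 adjusted over 4 comparisons, smallest possible p 0.0667). KO-ITD against WT-ITD gave a difference of -12.4 points (exact permutation p = 0.229, adjusted 0.305). WT-ITD against WT-GFP gave 1.83 points (exact permutation p = 0.8), and pre-leukemic marrow against WT-GFP -13.8 points (exact permutation p = 0.2, smallest possible 0.1). The outer start carried most of the counts in every library.

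**Figure D4:**
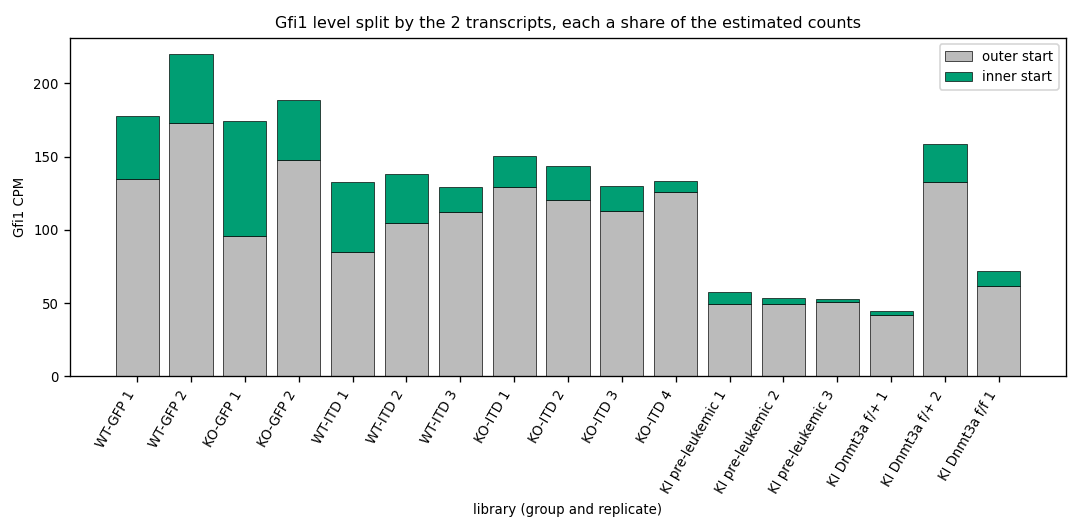
Gfi1 CPM in each library as stacked bars, split by the share of estimated counts given to each transcript. The inner-start part is largest in KO-GFP replicate 1 at 44.9% of the counts and smallest in pre-leukemic replicate 3 at 4.1%.

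Other genes of the myeloid programme were counted from lists drawn up for these members. The list counts stand beside the shares of all tested genes called. These were 2.24% in WT-ITD against WT-GFP, 19.6% in KO-ITD against KO-GFP and 0.49% in KO-ITD against WT-ITD. They were 5.0% in f/+ and 3.01% in f/f against pre-leukemic marrow, and 32.1% in knock-in against retroviral leukemias. The listed targets of the C/EBP factors, 14 granule genes that passed the filter, had a median log2 difference of 5.0 in f/+ and 5.16 in f/f against pre-leukemic marrow, where the median over all genes was 0.05 and -0.05. Of the 14, 3 were called in f/+ and 2 in f/f, all higher. Mmp9, the gelatinase of neutrophil granules, rose by 8.27 ± 1.57 in f/+ (edgeR adjusted p = 0.018) and by 9.25 ± 1.67 in f/f (edgeR adjusted p = 0.0179), and Cd177, a neutrophil surface protein, by 6.37 ± 1.68 (edgeR adjusted p = 0.0475) and 7.49 ± 1.84 (edgeR adjusted p = 0.0468). Mmp8, the neutrophil collagenase, rose in f/+ by 6.72 ± 1.74 (edgeR adjusted p = 0.044). Mmp9 was at 1.60, 1.70 and 0.38 CPM in pre-leukemic marrow, 34.82 and 607.8 in f/+ and 633.3 in f/f. In knock-in against retroviral leukemias all 14 granule genes were higher, led by Elane, neutrophil elastase, at 9.19 ± 0.88 (edgeR adjusted p = 1.65e-05), and Mpo, myeloperoxidase, at 9.16 ± 0.88 (edgeR adjusted p = 1.65e-05). In the retroviral comparisons 0 of 14 were called with Dnmt3a intact and 1 with it deleted, the protease gene Prtn3 (3.59 ± 1.16, edgeR adjusted p = 0.046), at a mean of 6.62 CPM against 0.53. The median log2 difference of the 14 was nevertheless 4.1 with Dnmt3a intact and 3.18 with it deleted. Over all genes the medians were 0.03 and 0.19.

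Of 20 listed PU.1 targets, 16 were higher in knock-in than in retroviral leukemias, beside 32.1% of all genes called. Among them were Cybb, the oxidase subunit, at 5.39 ± 0.84 (edgeR adjusted p = 0.000476), and Fes, a myeloid tyrosine kinase, at 5.27 ± 0.58 (edgeR adjusted p = 4.05e-05). None was called in f/+ and 2 rose in f/f, Cybb by 5.33 ± 1.28 (edgeR adjusted p = 0.0427) and the integrin gene Itgam by 4.93 ± 1.22 (edgeR adjusted p = 0.0476). Cybb ran from 31.11 to 48.17 CPM in pre-leukemic marrow to 109.6 and 1031 in f/+ and 1585 in f/f. In KO-ITD against KO-GFP, 1 of 20 was called, Fcer1g, the Fc receptor gamma chain (3.91 ± 1.26, edgeR adjusted p = 0.045), and in WT-ITD against WT-GFP none. Of 10 growth factor receptors, 8 were higher in knock-in than retroviral leukemias, beside the same 32.1% of all genes. Flt3 was higher by 5.79 ± 0.51 (edgeR adjusted p = 1.06e-05) and Csf3r, the G-CSF receptor, by 4.46 ± 0.81 (edgeR adjusted p = 0.00122). None of the 10 was called between knock-in leukemia and pre-leukemic marrow.

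For IRF8 the listed targets split. Bcl6, a repressor gene of lymphocytes that IRF8 can activate in B cells, fell by 4.35 on the log2 scale in WT-ITD (SE 0.81, edgeR adjusted p = 0.0158) and by 5.52 in KO-ITD (SE 0.76, edgeR adjusted p = 0.00112), and was the only one of 11 called in each. Irf8 itself lay at 7.48, 6.80 and 33.51 CPM in WT-ITD, around the 22.41 and 17.66 of WT-GFP. It lay at 11.58, 8.79, 26.82 and 56.30 CPM in KO-ITD, around the 17.31 and 24.51 of KO-GFP. Its low libraries, WT-ITD replicates 1 and 2 and KO-ITD replicates 1 and 2, were also low in the dendritic cell markers. Ccr9, which thymocytes express too, was at 1157 to 1375 CPM in the GFP libraries and was left out after the values were seen. The other 9 markers summed to 4.90 to 76.1 CPM in those 4 libraries. They summed to 229.8 to 321.7 in the 4 GFP libraries and to 1066, 673.9 and 429.3 in WT-ITD replicate 3 and KO-ITD replicates 3 and 4. The part of dendritic cells in the Irf8 level was not tested. In knock-in against retroviral leukemias 6 of the 11 listed IRF8 targets were higher and 1 lower, beside 32.1% of all genes called.

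Of the 7 KLF4-linked monocyte genes, none was called in KO-ITD against KO-GFP, where Klf4 was. None was called in either knock-in leukemia against pre-leukemic marrow, where Klf4 was not called either. Their median log2 differences in these comparisons were 3.52, 3.10 and 4.14. In knock-in against retroviral leukemias, where Klf4 was called, 5 of the 7 were higher, beside 32.1% of all genes called. Their median log2 difference there was 4.12. In KO-ITD replicate 3, where Klf4 was 139.1 CPM, Cd14, the monocyte receptor for endotoxin, was at 3.25 CPM and Ccr2, a chemokine receptor, at 17.56, against 33.49 and 2.91 in replicate 4. Of 11 genes listed as repressed by GFI1, 4 were called in KO-ITD against KO-GFP, 2 in each direction, beside 19.6% of all genes. Cdkn1a, the p21 cell cycle inhibitor, rose by 4.19 ± 1.16 (edgeR adjusted p = 0.0259) and Id2, an inhibitor of E proteins, by 1.79 ± 0.45 (edgeR adjusted p = 0.0175), while the early growth response genes Egr2 (-4.79 ± 1.24, edgeR adjusted p = 0.0196) and Egr1 (-3.84 ± 0.92, edgeR adjusted p = 0.0143) fell. Egr1 fell with Dnmt3a intact too, in WT-ITD against WT-GFP (-4.61 ± 1.04, edgeR adjusted p = 0.0391). It was the only 1 of the 11 called there, beside 2.24% of all genes. In knock-in against retroviral leukemias 3 of the 11 were higher and none lower, a share close to the 32.1% of all genes called. Among them were Hoxa9 and Meis1, homeobox genes of progenitors, higher by 7.56 ± 0.93 (edgeR adjusted p = 0.000129) and 6.48 ± 0.75 (edgeR adjusted p = 5.56e-05).

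Among 31 other regulators of myeloid cells, Id2 and Nfil3 rose in both knock-in leukemia comparisons. Id2 rose by 2.98 ± 0.44 in f/+ (edgeR adjusted p = 0.00843) and 3.35 ± 0.50 in f/f (edgeR adjusted p = 0.00812), from 13.95 to 28.26 CPM in pre-leukemic marrow to 155.8 to 209.9 in the 3 leukemias. Nfil3, a basic leucine zipper factor, rose by 2.24 ± 0.33 (edgeR adjusted p = 0.00843) and 2.64 ± 0.38 (edgeR adjusted p = 0.00808). Nfil3 was also the only regulator of the list called in KO-ITD against WT-ITD, at 20.36 to 33.19 CPM in 4 KO-ITD and 2.94 to 4.91 in 3 WT-ITD libraries (log2 difference 2.74 ± 0.31, edgeR adjusted p = 0.0036). Klf6, a Kruppel-like relative of Klf4, rose in f/f by 2.28 ± 0.52 (edgeR adjusted p = 0.038). Trib2, a pseudokinase known to promote the degradation of C/EBP alpha protein, fell by 4.90 in f/+ (SE 1.12, edgeR adjusted p = 0.0294). It was at 7.82, 11.50 and 43.36 CPM in pre-leukemic marrow and at 0.77, 0.64 and 1.39 in the 3 leukemias, and it was 7.24 lower on the log2 scale in knock-in than in retroviral leukemias (-7.24 ± 1.12, edgeR adjusted p = 0.000451). In KO-ITD against KO-GFP, 6 of the 31 regulators rose and 6 fell, beside 19.6% of all genes called. Gata2 (5.34 ± 1.77, edgeR adjusted p = 0.0498), Tfec (5.17 ± 1.52, edgeR adjusted p = 0.0327) and Spib, a relative of PU.1 (4.36 ± 1.28, edgeR adjusted p = 0.0327), were among those that rose. Of the other C/EBP family genes, Cebpg, Cebpz and Ddit3, none was called within either model.

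**Figure D5:**
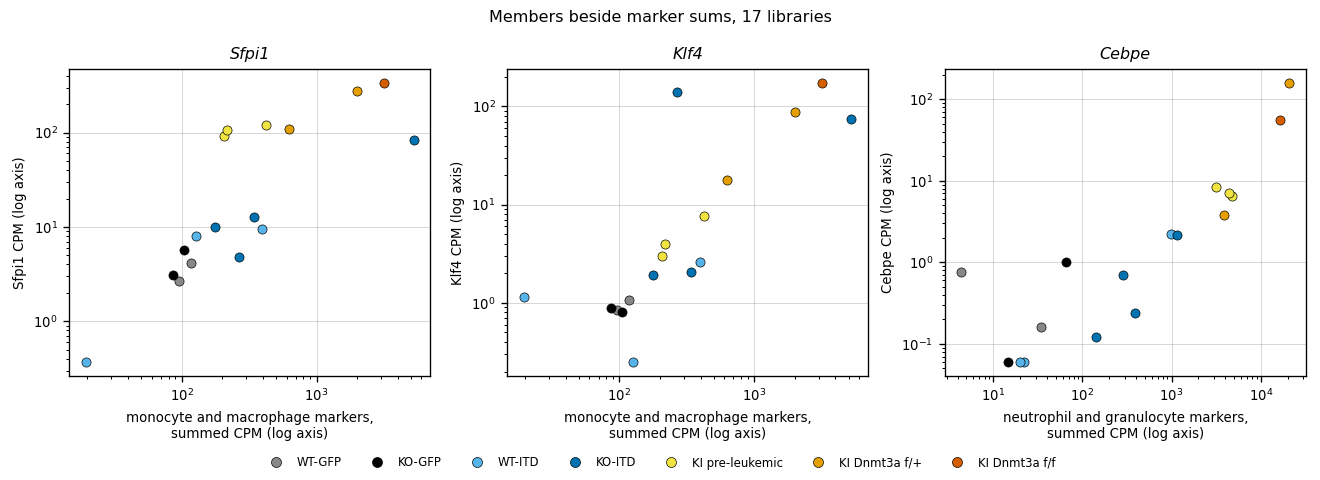
Sfpi1 and Klf4 against the summed monocyte and macrophage markers and Cebpe against the summed neutrophil and granulocyte markers, CPM on log axes, 1 point per library. KO-ITD replicate 3 has 139.1 CPM of Klf4 at a marker sum of 268.2, and KO-ITD replicate 4 has 82.76 CPM of Sfpi1 at 5254.

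The genes whose centred log2 CPM was nearest to each member over the 17 libraries were sought by the root mean square difference, as a description over libraries that share groups and depth. Gfi1 had the nearest neighbours, Trim11 (0.21), Tmem62 (0.22) and Limk2 (0.25), of a gene that itself varied little. Sfpi1 came next with Csf2rb, the shared beta chain of the GM-CSF and interleukin receptors (0.36), Cd300a (0.40) and Tifa (0.42). Cebpd lay near Dram1 (0.62), Aoah (0.63) and Wipi1 (0.69), Irf8 near Nlrc4 (0.59), Ntng2 (0.66) and Vav3 (0.70), Cebpa near B4galt6 (0.64), Ogfrl1 (0.68) and Fam129b (0.69), and Cebpb near Dhrs7 (0.66), Schip1 (0.67) and Evi5 (0.79). Cebpe was farther from its nearest, Trem3 and Cd300lb (0.98 each) and Fcnb (1.07), and Klf4 farther still from Plaur (0.99), Ckm (1.27) and M1ap (1.34). Within the members the closest pair was Cebpa and Sfpi1 (0.71), and Cebpb was nearer to Cebpd (1.08) and Klf4 (1.38) than to Cebpa (1.97).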

How the data were processed

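The authors deposited estimated counts per gene and per transcript (TopHat2 2.0.10 on mm9, Cufflinks 2.1.1 and Cuffdiff 2.1.1 or 2.2.1, per the submitters' processing notes) and, for 9 libraries, FPKM per locus. No source used here names the step that wrote the tables, its strand setting or its filters. From 98.12% to 98.54% of nonzero gene counts were whole within 0.001, and all were rounded. 2 sequencing runs of each WT-GFP library share 1 column, so 19 records gave 17 libraries, with no other per-sample column left over.

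Counts were tested with edgeR 4.0.16 (R 4.3.3) in 1 quasi-likelihood fit over 17 libraries, with filterByExpr, TMM (factors 0.943 to 1.076), Benjamini-Hochberg adjustment over 15508 genes and a threshold of 0.05. SE is the log2 change over the square root of F. CPM uses TMM, and log2 CPM a prior count of 2. The fit was tested on simulated data. Alternatives were DESeq2 1.42.0, other scaling and filters, subsets and left-out libraries. Permutations used scipy 1.17.1. The labels call libraries biological replicates without naming animals, so p-values measure the spread between them. Replicates differed beyond sampling noise (chi-square per degree of freedom at least 8.4). Replicate numbers do not pair libraries, by the check given with the alternatives.

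The members and lists were chosen with earlier results of these data known. Text names all 8 members, up to 4 called genes per list and comparison by size, and the 3 nearest genes of each member, leaving out predicted or numbered names. A few further genes (Cd34, Ltf, Marco, Emr1, Ccr9, Kit, Cd14, Ccr2, Vcan, Cd68, Lyz2, Csf1r, Cx3cr1) were named after their values were seen. Marker lists were summed over CPM: neutrophil, macrophage, dendritic, thymocyte and stroma sums are quoted, and B cell, early T, erythroid, megakaryocyte and basophil sums were computed too. FPKM were used as a description alone.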

Additional observations from a re-analysis of the deposited data

Results flagged for a closer look

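3 members had 1 library far from the others of its group, each time KO-ITD replicate 4, by Dixon's gap test (gap over range above 0.829 for 4 libraries). Cebpa was at 32.4 CPM there (statistic 0.931), Cebpd at 30.46 (0.933) and Sfpi1 at 82.76 (0.897). Chance flags about 1 in 20 such groups, and 9 were tested, all in KO-ITD, the one group of that size, so the 3 are not independent. The same library had the highest sums of macrophage (5254 CPM) and stroma and endothelium markers (2228 CPM) of its group. What these have to do with each other was not tested.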

How the results depend on the processing

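Of 454 recomputed log2 changes over 37 member and comparison pairs, 399 kept direction and side of the threshold, 34 lost the call, 16 gained it and 5 changed sign. The sign changes were Gfi1 in KO-GFP against WT-GFP (leave-one-out values up to 0.03), the Cebpb interaction in the first submission (-0.33), and f/+ against pre-leukemic marrow without f/+ replicate 2, where leave-one-out values ran from -0.89 to 1.37 for Cebpa, -0.96 to 4.43 for Cebpe and -0.28 to 1.54 for Gfi1. The causes were not tested. Members called in KO-ITD against KO-GFP were 2 in the main test, 1 with the replicate block (Cebpb, with Klf4 at 2.93), 0 with these groups alone or the first submission, 3 by DESeq2 (with Cebpa), 4 in thymus libraries and 0 to 3 leaving out 1 library: 0 without either KO-GFP library and 1 without KO-ITD replicate 3. In KO-ITD against WT-ITD the count was 1, Klf4, by DESeq2 or in thymus libraries, and 0 to 1 leaving out 1 library (1 without KO-ITD replicate 2). In f/+ against pre-leukemic marrow it was 0 with these groups alone and 0 to 2 leaving out 1 library (0 without any pre-leukemic library or f/+ replicate 2, 2 without replicate 1). In f/f it was 2 by DESeq2, 6 with these groups alone, where the spread comes from the 3 pre-leukemic libraries, and 0 without any 1 pre-leukemic library. In knock-in against retroviral leukemias it was 5 with these groups alone and 5 by DESeq2. In pre-leukemic marrow against WT-GFP it ran from 1 to 6 leaving out 1 library.

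Genes called over the whole table, with the range leaving out 1 library and then under other settings, were 347 in WT-ITD against WT-GFP (23 to 607, 325 to 1418), 3047 in KO-ITD against KO-GFP (147 to 3954, 439 to 4971), 76 in KO-ITD against WT-ITD (10 to 641, 0 to 1265), 775 in f/+ (38 to 1246, 157 to 2335), 467 in f/f (36 to 91, 346 to 3680), 4979 in knock-in against retroviral leukemias (4372 to 5970, 2776 to 6328) and 4942 in pre-leukemic marrow against WT-GFP (1699 to 3863, 4542 to 8646). DESeq2 gave no adjusted p for Cebpd and Sfpi1. Same-numbered libraries' deviations correlated from -0.287 to 0.369, with 3 of 33 pairs over 0.1, so the numbers do not pair libraries. The replicate block changed no other member count. Crossing the KO-GFP numbers, chosen after seeing the data, left 0 genes called in KO-GFP against WT-GFP. The log2 Cebpa to Cebpb ratio kept its sign without any 1 knock-in library, and the Gfi1 inner-start share kept its sign in 3 of 4 comparisons, with WT-ITD against WT-GFP from -3.80 points without WT-ITD replicate 1 to 7.46 without replicate 3. In the FPKM files the highest library was the same as by counts for 6 of 8 members, and Cebpd was listed at 0 in 8 of 9. Cebpd and Cebpe rest on under 20 counts in most thymocyte libraries, so small differences are not detectable there.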
